A study of Mus musculus with 5 samples.

Results

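A pair of the 3 hashtagged neutrophil populations taken from mice bearing AT3 tumours was compared: the cells tagged MHTO7 and the cells tagged MHTO10. A cell was given a tag when its top hashtag held at least 80% of its named-hashtag counts and at least 20 counts. It was kept when it had at least 200 genes, under 10% of its UMIs from mitochondrially encoded genes, and at least 2% of its UMIs from S100a8 and S100a9, the alarmin genes that dominate the neutrophil transcriptome. A UMI is a molecular tag that marks 1 captured transcript. The rule gave 1969 MHTO7 cells and 2498 MHTO10 cells, together 4467 of the 7840 cell barcodes of the AT3 library and of the 26406 in the series. Apart from the S100 pair and the mitochondrially encoded genes, no single gene entered the choice of cells.

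The study profiled neutrophils sorted from bone marrow, peripheral blood and lung of female wild-type C57BL/6J mice that were naive, bore tumours of AT3, a mouse mammary carcinoma line, or bore tumours of AT3-gcsf, whose name refers to the neutrophil growth factor G-CSF. Both populations share the strain, the sex, the AT3 tumour and the sort, and whether they came from the same mice is not given. Their cells shared 1 lane of a 10x Chromium chip with the MHTO8 cells, and about 8000 cells of each tagged sample were loaded. The labels name 3 tissues and the library holds 3 tags, but no label says which tag marks which tissue, so no tissue is assigned here. They also give no age, tumour stage, number of mice or pooling. With 1 library per population there were no replicates, no test was possible, and every interval given below covers counting error alone (95%, exact).

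Neutrophils fill their granules in a fixed order during maturation. Primary granules with myeloperoxidase and elastase are loaded first in dividing precursors, secondary granules with lactoferrin and cathelicidin follow as division stops, and gelatinase granules come last. The granule messages are then shut down, and mature cells express chemokine receptors, cytokine receptors and inflammatory genes such as Il1b.

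The hashtags are antibodies that carry a 15-base barcode, and the assignment of every cell rests on telling these barcodes apart. They are given as deposited, with capitals at the 10 positions where they differ.
MHTO7: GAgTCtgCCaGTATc
MHTO10: CCgATtgTAaCAGAc
A dominant tag was found on 97.4% of the called barcodes. The barcode sequences of 44 and 20 called AT3 cells also occurred among the called cells of the naive and AT3-gcsf libraries. Among the kept cells, 12 of MHTO7 and 10 of MHTO10 were of this kind, and leaving them out gave 116 and 671 genes where all cells gave 116 and 662 (below).

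The populations differed in captured RNA per cell. MHTO7 cells held a median of 9812 UMIs and 1656 genes, and MHTO10 cells a median of 3283.5 UMIs and 1107.5 genes. The summed counts were 21036113 UMIs for MHTO7 and 10024086 for MHTO10. The mean was 10684 UMIs per cell against 4013, a ratio of 2.66, or 2.16 without S100a8 and S100a9. These 2 genes took 39.5% of the MHTO7 counts and 25.5% of the MHTO10 counts. Each gene was therefore described on 2 scales. The first is CPM, counts per 1000000 counts of the population, which shows a gene's share of the RNA. The second is mean UMIs per cell, which also carries the difference in captured RNA, and whether that difference lies in the cells or in their capture was not tested.

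Of the 8 neutrophil markers listed for this cell type, S100a8 and S100a9 were used to choose the cells. The other 6, Csf3r, Cxcr2, Mmp9, Retnlg, Ly6g and Il1r2, were all detected, from 359 CPM (Il1r2) to 22104 CPM (Retnlg) in MHTO7 and from 398 CPM (Ly6g) to 12478 CPM (Retnlg) in MHTO10. Markers of other cells were low. The 9 monocyte and macrophage markers summed to 37.4 CPM in MHTO7 and 113 CPM in MHTO10, nearly all of it Csf1r, the receptor of macrophage growth factor. The 4 eosinophil markers summed to 7.42 and 29.1 CPM, the 6 T and NK cell markers to 4.66 and 3.39 CPM, and the 5 erythroid markers to 30.5 and 6.68 CPM. The 4 lung epithelial markers summed to 72.3 and 133 CPM, most of it Scgb1a1, a secretory protein of airway cells. After every cell was thinned to 1000 UMIs, Scgb1a1 was seen in 8.49% of MHTO7 and 13.7% of MHTO10 cells, so a gene at such a share of cells can be free RNA in the droplets. The part of these other markers in the results below was not tested. The median mitochondrial share was 0.640% in MHTO7 and 0.576% in MHTO10.

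Genes with 20 CPM or more in one population or the other were compared. A gene was called different at 2-fold or more after 5 CPM were added to both levels, and every fold given for CPM includes them. Of 3767 genes compared, 116 were higher in MHTO7 (3.08%) and 662 were lower (17.6%). The median log2 ratio of all compared genes was -0.49 on this scale. With TMM factors, a scaling that discounts a few very abundant genes, the split was 313 higher (8.59%) and 195 lower (5.35%) of 3644. In UMIs per cell, 1367 genes were at least 2-fold higher in MHTO7 (36.3%) and 35 were at least 2-fold lower (0.929%). On that scale 3401 of the 3767 genes were above 0, and the median log2 ratio was 0.79. The split between higher and lower genes thus depended on the scale. UMIs per cell add 1.41 to every log2 ratio before the added constants. All 116 were therefore bound to be at least 2-fold higher on that scale. Of the 662, 366 lay below 0 there.

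**Figure D1:**
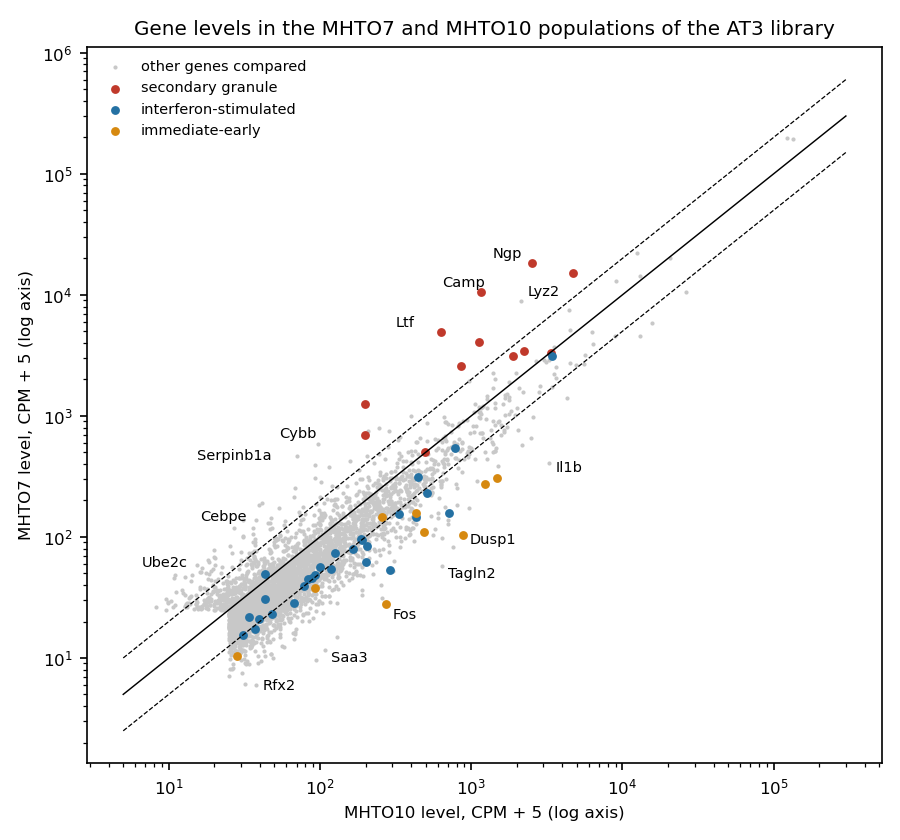
Level of each of the 3767 compared genes in MHTO10 (x axis) and MHTO7 (y axis), both in CPM + 5 on log axes, with equality as a solid line and 2-fold limits as dashed lines. Of the secondary granule genes (red), 8 lie above the upper limit, while 8 immediate-early genes (orange) and 15 interferon-stimulated genes (blue) lie below the lower limit.

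The genes of secondary granules stood highest in MHTO7. Of 12 members compared, 8 were at least 2-fold higher and none was at least 2-fold lower, with a median log2 ratio of 1.75 against -0.49 over all genes. Camp, the cathelicidin precursor, stood at 10518 CPM (10474 to 10561) in MHTO7 and 1156 CPM (1135 to 1177) in MHTO10, a 9.07-fold difference. In UMIs per cell, Camp was at 112 in MHTO7 and 4.64 in MHTO10. The summed MHTO10 level was weighted by few cells rich in secondary granule UMIs. Camp was at 198 CPM in the 2208 MHTO10 cells with 0.5% to 2% of such UMIs. It was at 2157.5 CPM in the 196 cells with 2% to 10%, and 11 cells had more. The log2 ratio of Camp was 3.18 in summed counts and 3.83 as the mean over cells of per-cell CPM. Ltf, lactoferrin, which binds iron, was at 4956 and 629 CPM, a 7.83-fold difference. Ngp, a cystatin-like granule protein, was at 18472 and 2516 CPM, a 7.33-fold difference. These 3 genes had the highest ratios of all compared genes, and all lie on chromosome 9 of GRCm38: Camp at 109847379 to 109849617, Ngp at 110419747 to 110423012 and Ltf at 111019271 to 111042767.

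The other secondary granule genes differed less. Chil3, a chitinase-like lectin, was at 1243 CPM in MHTO7 and 194 CPM in MHTO10. Ifitm6, placed on this list by its expression in maturing neutrophils, was at 4095 and 1120 CPM, and Cd177, a surface and granule glycoprotein, at 694 and 193 CPM. Lcn2, the siderophore-binding lipocalin, was at 15001 and 4690 CPM, and Mmp8, neutrophil collagenase, at 2553 and 848 CPM. The list was not uniform. Anxa1 (3117 and 1874 CPM) and Pglyrp1 (3439 and 2240 CPM) were under 2-fold apart. Chil1 (493 and 487 CPM) and Hp, haptoglobin (3293 and 3378 CPM), took nearly the same share of both populations. All 12 were at least 2-fold higher in MHTO7 in UMIs per cell, Hp at 35.2 against 13.6. Fcnb, a ficolin, did not reach the minimum, at 10.5 and 1.30 CPM.

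C/EBP factors are known to drive granule genes, and their shared sequence was looked for in the 250 bases before the RefSeq start of each gene (GRCm38.p6). The letters TTGCNNAA, on either strand, occurred for 6 of the 12 secondary granule genes with a promoter in the table, and for 10.8% of all 27025 genes in it. Among the genes higher in MHTO7 the share was 16.3% of 92, and among the genes lower in MHTO7 it was 11.4% of 534. Among all compared genes it was 10.1% of 3041. The higher genes with a match include Ltf, Ngp, Lcn2 and Mmp8 of the secondary granule list, so their share is not separate from that of the list. The stretches of 3 members are shown because they carry the match next to genes that were higher together, with the match in capitals and cut where a GENCODE vM21 gene record begins. Ltf at chr9:111019042-111019270 (plus strand), Ngp at chr9:110419558-110419746 (plus strand) and Mmp8 at chr9:7558179-7558428 (plus strand) read as follows.
Ltf: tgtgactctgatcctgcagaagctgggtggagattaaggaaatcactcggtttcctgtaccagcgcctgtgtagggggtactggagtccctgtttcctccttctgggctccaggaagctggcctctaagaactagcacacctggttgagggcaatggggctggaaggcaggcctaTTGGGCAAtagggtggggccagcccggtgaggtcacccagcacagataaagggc
Ngp: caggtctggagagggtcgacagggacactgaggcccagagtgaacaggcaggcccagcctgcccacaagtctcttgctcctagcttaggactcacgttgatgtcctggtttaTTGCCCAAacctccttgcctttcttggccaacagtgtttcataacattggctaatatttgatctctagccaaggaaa
Mmp8: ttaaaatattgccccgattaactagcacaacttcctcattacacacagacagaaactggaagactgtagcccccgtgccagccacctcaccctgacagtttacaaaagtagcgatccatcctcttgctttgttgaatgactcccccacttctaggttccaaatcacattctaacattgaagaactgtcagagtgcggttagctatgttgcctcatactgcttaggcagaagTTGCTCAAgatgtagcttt
A match describes the letters only. Camp, the gene with the highest ratio, had no match in its window.

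Outside the list, the genes highest in MHTO7 included others of maturing neutrophils. Serpinb1a, an inhibitor of the granule proteases, was at 460 CPM (451 to 469) in MHTO7 and 65.1 CPM (60.2 to 70.3) in MHTO10. Cybb, the membrane subunit of the NADPH oxidase that makes superoxide, was at 581 and 92.2 CPM. Lyz2, lysozyme, was at 8865 and 2131 CPM. The other 5 oxidase subunits were under 2-fold apart in CPM, among them Cyba at 1703 and 1394 CPM, and all 6 were at least 2-fold higher in UMIs per cell. Cebpe, the C/EBP factor required for secondary granules, was at 112 CPM in MHTO7 and 21.9 CPM in MHTO10, and it was the only one of 8 transcription factors of granulocyte formation above 0 in CPM. Ly6g and Ly6c2, surface antigens used to sort neutrophils and monocytes, were at 999.8 and 739 CPM in MHTO7 and 398 and 202 CPM in MHTO10. Itgb2l, a beta integrin of the neutrophil lineage, was at 177 and 34.6 CPM, and Anxa3, an annexin, at 184 and 36.2 CPM.

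The difference in cell cycle genes depended on the scale. Of 8 cell cycle genes compared, 2 were at least 2-fold higher in MHTO7: Ube2c, a ubiquitin conjugase of mitosis, at 43.8 and 5.99 CPM, and Stmn1, a tubulin-binding protein, at 23.6 and 4.89 CPM. The Ube2c counts came from few cells, 1.83% of MHTO7 and 0.440% of MHTO10 cells. The median of the cell cycle list was 0.51, but it was -0.03 after thinning to 1000 UMIs per cell and -0.01 as the mean of per-cell CPM, with 1 gene higher and 5 of 8 below 0 in both settings. With TMM factors 4 of the 8 were at least 2-fold higher, with a median of 0.99. Totals without the 20 most abundant genes also gave 4, with a median of 0.97. In UMIs per cell all 8 were at least 2-fold higher, with a median of 1.84 against 0.79 over all compared genes. Top2a, the topoisomerase of dividing cells, was at 17.7 and 2.10 CPM, and Mki67, the proliferation antigen, at 10.5 and 2.29 CPM, both under the minimum. The letters TTTGGCGC or TTTCCCGC of E2F factors, on either strand, were found for 1 of 20 cell cycle genes with a promoter in the table and for 1.51% of all genes. Of 10 primary granule genes 3 were compared. Serpinb1a, described above, was higher, Srgn, the proteoglycan serglycin, was lower at 1405 and 4291 CPM, and Ctsc, a protease that activates the granule proteases, was under 2-fold. The median of the 3 was 0.33. The classical products stayed under the minimum. Elane, elastase, was at 1.33 and 2.59 CPM, Mpo, myeloperoxidase, at 1.71 and 2.29 CPM, and Prtn3, proteinase 3, at 14.4 and 13.9 CPM.

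Late and general neutrophil genes differed less in CPM. None of 11 genes of gelatinase granules and late maturation passed 2-fold, with a median log2 ratio of 0.23. The scale mattered here: 5 of the 11 were higher with TMM factors, with a median of 0.76. With totals without the 20 most abundant genes 4 were higher, and in UMIs per cell 8, with a median of 1.63. Of the 3767 genes compared in CPM, 288, 275 and 1367 were higher in these settings. Their medians were -0.01, -0.10 and 0.79. Mmp9, gelatinase, was at 1993 and 1422 CPM, and Retnlg, a resistin-like protein, at 22104 and 12478 CPM. S100a8 was at 199295 and 122045 CPM and S100a9 at 195375 and 133146 CPM. Of 9 genes of S100 proteins and stefins 1 was higher in CPM, with a median of 0.52, and 5 were higher with TMM factors. Of 16 glycolysis genes 1 was lower, the glucose transporter Slc2a1 at 48.5 and 109 CPM, and the median was 0.15. Of 16 actin and motility genes 1 was higher and 1 was lower, with a median of -0.04, and Tmsb10, a thymosin, was the higher one at 416 and 153 CPM. Of 65 nuclear genes of the respiratory chain 2 were higher, with a median of 0.01, and none of the 10 mitochondrially encoded genes passed 2-fold. Of 11 genes of the endoplasmic reticulum 1 was lower, the chaperone Hspa5 at 60.9 and 156 CPM. Of 82 cytosolic ribosomal protein genes 1 was higher and 2 were lower, with a median of -0.34 in CPM and 1.05 in UMIs per cell. Their direction changed with the scale, as did the median of all compared genes (-0.49 and 0.79).

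The largest difference in the other direction was Tagln2, transgelin 2, an actin-binding protein. It was at 52.2 CPM (49.2 to 55.4) in MHTO7 and 634 CPM (618 to 650) in MHTO10, which is 11.2-fold lower in MHTO7, and in UMIs per cell it was at 0.558 and 2.54. Immediate-early genes, which are transcribed within minutes of a stimulus, were the list with the lowest median. Of 9 compared, 8 were at least 2-fold lower in MHTO7 and none was higher, with a median log2 ratio of -2.13 in CPM, -1.60 with TMM factors and -0.76 in UMIs per cell. Fos, a subunit of the AP-1 transcription factor, was at 22.7 CPM in MHTO7 and 270 CPM in MHTO10. Dusp1, a phosphatase that switches off MAP kinases, was at 98.0 and 880 CPM. Junb was at 303 and 1476 CPM, Jund at 267 and 1232 CPM, and Zfp36, which destabilises cytokine messages, at 106 and 479 CPM. Ier2 was the member under 2-fold, at 142 and 251 CPM, and the only one above 0 in UMIs per cell. Gm34455, a predicted gene at 4.61 and 89.3 CPM, lies on chromosome 17 at 26467560 to 26503200, on the same strand as Dusp1 and next to it (26505590 to 26562128), so reads of the 2 genes may not be separable.

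Interleukin 1 genes were not uniform. Il1b, the cytokine itself, was at 400 CPM (391 to 409) in MHTO7 and 3284 CPM (3249 to 3320) in MHTO10, and at 4.27 and 13.2 UMIs per cell. Il1rap, the shared co-receptor, was at 26.1 and 254 CPM. Il1rn, the receptor antagonist, was at 61.7 and 157 CPM but at 0.659 and 0.628 UMIs per cell. Il1r2, the decoy receptor, was at 359 and 531 CPM, under 2-fold. Of 8 chemokine and cytokine genes compared, 6 were at least 2-fold lower in MHTO7, with a median of -1.21 in CPM and 0.12 in UMIs per cell. Other genes far lower in MHTO7 were Fgl2, a fibrinogen-like protein, at 77.0 and 752 CPM, Saa3, an acute-phase protein, at 6.61 and 103 CPM, Adgre5, the adhesion receptor CD97, at 92.2 and 640 CPM, and Marcks, a substrate of protein kinase C, at 167 and 961 CPM. Rfx2, a transcription factor, was at 0.998 and 32.7 CPM.

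Receptors of mature neutrophils took a smaller share of MHTO7 RNA. Of 18 genes of cytokine receptors and their signal, 9 were at least 2-fold lower and none was higher in CPM, with a median of -1.03 in CPM, -0.53 with TMM factors and 0.30 in UMIs per cell. Csf3r, the G-CSF receptor, was at 565 and 2173 CPM, and at 6.04 and 8.72 UMIs per cell. Socs3, the feedback inhibitor of G-CSF signalling, was at 123 and 696 CPM. Csf2ra, a GM-CSF receptor chain, was at 202 and 189 CPM. Of 10 chemoattractant receptors, 5 were at least 2-fold lower in CPM, with a median of -1.04, and the median turned to 0.34 in UMIs per cell. Cxcr2, which draws neutrophils out of the marrow and into tissue, was at 684 and 1577 CPM and at 7.30 and 6.33 UMIs per cell. Cxcr4, which retains them in the marrow, was at 78.0 and 199 CPM. Fpr1, Fpr2 and Ltb4r1, receptors of formyl peptides and leukotriene B4, leaned the other way and were all under 2-fold, Fpr1 at 319 and 244 CPM.

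Adhesion genes split. Of 12 compared, 3 were higher in MHTO7 and 5 were lower. Ly6c2, Ly6g and Ceacam1 were the higher ones, Ceacam1 at 85.9 and 31.9 CPM. Itga4, the alpha chain of VLA-4, was at 28.3 and 183 CPM, Itgal, the alpha chain of LFA-1, at 102 and 388 CPM, Cd44 at 249 and 803 CPM, and Selplg, the ligand of P-selectin, at 724 and 1634 CPM. Of these, Selplg was above 0 in UMIs per cell, at 7.74 and 6.56. Of the transcription factors, Klf2, a factor of quiescent circulating leukocytes, was lower at 382 and 1507 CPM, as were Klf6 (164 and 400 CPM) and Cebpb (604 and 1364 CPM). The median of the 8 factors was -0.94 in CPM and 0.36 in UMIs per cell, where Klf6 and Cebpb were above 0 and Klf2 stayed below.

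Interferon-stimulated genes took less of the MHTO7 RNA, and like most compared genes they were mostly above 0 in UMIs per cell. Of 28 compared, 15 were at least 2-fold lower in MHTO7 and none was higher in CPM, with a median of -1.01. The count was 4 with TMM factors, with a median of -0.50, and in UMIs per cell 24 of the 28 were above 0. Over all compared genes 3401 of 3767 were above 0 in UMIs per cell. The median there was 0.79, against 0.29 for this list. The list also lay below the median of all compared genes in CPM. The second scale adds 1.41 to every log2 ratio before the added constants, so it is not separate evidence of that order. Gbp2, Oasl2, Slfn5 and Trim30a were the 4 members below 0 in UMIs per cell too. Gbp2, a guanylate-binding protein, was at 48.3 and 285 CPM and at 0.516 and 1.14 UMIs per cell. Oasl2, an oligoadenylate synthetase-like protein, was at 154 and 707 CPM and at 1.64 and 2.84 UMIs per cell. Slfn5, a Schlafen protein, was at 56.8 and 198 CPM, and Trim30a, a tripartite motif protein, at 140 and 428 CPM. Isg15, a ubiquitin-like modifier, was at 150 and 327 CPM but at 1.60 and 1.31 UMIs per cell. Ifit3 was at 51.6 and 95.4 CPM, with Ifit3b at 34.0 and 73.0 CPM, and these near-identical copies may share reads. Ifitm3, the most abundant member, was level at 3098 and 3402 CPM.

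The interferon-stimulated response element, on either strand, was found in the window of 11 of the 25 list members with a promoter in the table, and of 3.46% of all genes. It was found for 7 of 13 members that were lower in MHTO7, for 8.24% of all genes lower in MHTO7 and for 2.17% of those higher. Among all compared genes it was found for 4.31%, and the genes lower in MHTO7 include those 7 members. Isg15 (chr4:156200819-156201068, minus strand) is shown because 3 overlapping matches form 1 run, in capitals, and Ifit3 (chr19:34583279-34583528, plus strand) because it holds 2 separate ones.
Isg15: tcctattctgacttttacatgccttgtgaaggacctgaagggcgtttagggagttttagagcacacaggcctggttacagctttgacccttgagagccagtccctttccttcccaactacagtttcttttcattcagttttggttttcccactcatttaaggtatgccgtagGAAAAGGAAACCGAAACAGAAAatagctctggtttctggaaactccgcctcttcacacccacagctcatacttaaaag
Ifit3: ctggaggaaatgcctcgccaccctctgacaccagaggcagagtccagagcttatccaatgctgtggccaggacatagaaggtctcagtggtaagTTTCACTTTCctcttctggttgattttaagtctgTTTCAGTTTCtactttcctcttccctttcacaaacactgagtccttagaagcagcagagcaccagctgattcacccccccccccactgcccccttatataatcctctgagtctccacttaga

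Antigen presentation and NF-kB feedback genes followed the same order. Of 10 genes of MHC class I presentation, 5 were at least 2-fold lower in CPM, with a median of -0.97 in CPM and 0.42 in UMIs per cell. B2m, the light chain of class I molecules, was at 508 and 1428 CPM, and H2-K1 at 255 and 554 CPM. Of 12 NF-kB feedback genes, 6 were at least 2-fold lower, with a median of -0.97 in CPM and 0.29 in UMIs per cell. Tnfaip2 was at 144 and 535 CPM. With TMM factors fewer members of these lists were at least 2-fold lower. They were 6 of 9 immediate-early genes, 5 of 18 genes of cytokine receptors, 3 of 8 chemokines and cytokines and 3 of 12 adhesion genes. Of the NF-kB feedback genes 1 of 12 was lower, and 0 of 10 chemoattractant receptors and 0 of 10 class I genes were. Of the 3767 genes compared in CPM, 203 were at least 2-fold lower with TMM factors. Mcl1, which keeps neutrophils alive, was at 761 and 2047 CPM, yet at 8.13 and 8.21 UMIs per cell. Wfdc17, a small secreted protein abundant in the AT3 cells, was likewise at 5894 and 15571 CPM but at 63.0 and 62.5 UMIs per cell. Of the 11 genes listed because earlier results of these data had them higher in AT3 than in naive mice, 5 were lower in MHTO7. They were Wfdc17, Saa3, Ifitm1 (4603 and 13059 CPM), Igfbp6 (133 and 700.2 CPM) and Steap4 (172 and 669 CPM). Prok2, a chemokine-like peptide, was under 2-fold at 646 and 451 CPM. For genes such as Mcl1 and Wfdc17, the 2.66-fold difference in mean UMIs per cell offset the difference in share.

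**Figure D2:**
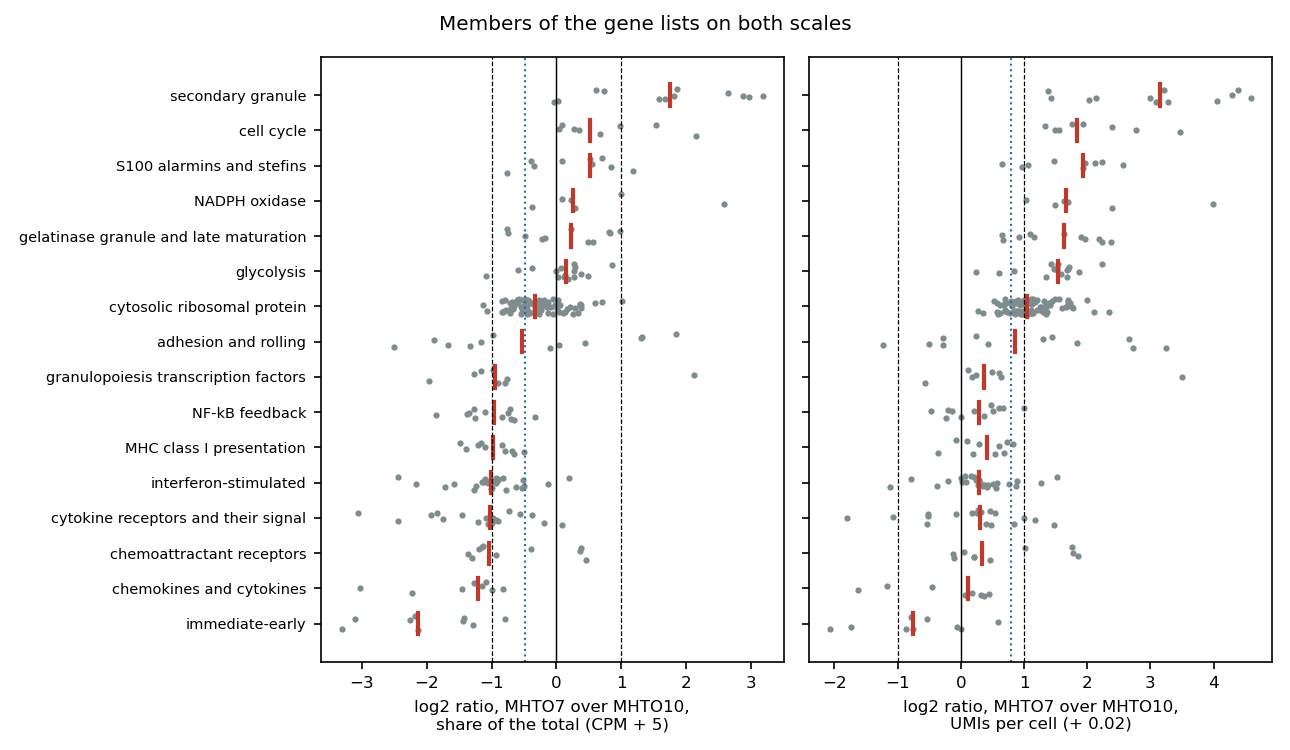
Log2 ratio of MHTO7 over MHTO10 for the compared members of 16 gene lists (grey points, 1 per gene; red bars, list medians), in CPM on the left and in UMIs per cell on the right. The dotted line is the median of all compared genes, the dashed lines are 2-fold, and only the immediate-early list has a median below 0 on both sides (-2.13 and -0.76), while the secondary granule list has the highest on both (1.75 and 3.16).

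The MHTO7 cells were far from alike. The share of a cell's UMIs from the 13 secondary granule genes had a median of 2.85% in MHTO7, with an interquartile range of 1.49% to 6.99%, and a median of 1.08% in MHTO10, with a range of 0.827% to 1.43%. Cells with 10% or more were 334 of the MHTO7 cells (17.0%, 15.3 to 18.7) and 11 of the MHTO10 cells (0.440%, 0.220 to 0.787). Cells between 2% and 10% were 923 (46.9%) and 196 (7.85%). Cells between 0.5% and 2% were 690 (35.0%) and 2208 (88.4%), and the rest, 22 and 83 cells, lay below 0.5%. After thinning to 1000 UMIs, which left out 3 and 16 shallower cells, the share of cells at 10% or more was 17.0% and 0.604%. These ranges are steps of a continuous measure and not cell types.

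The share of cells with at least 1 UMI of a gene gave the same order at equal depth. After thinning, Camp was seen in 47.3% of MHTO7 cells and 20.1% of MHTO10 cells, and unthinned in 78.3% and 52.1%. Mmp8 was seen in 75.4% and 29.3% of thinned cells, Ly6g in 49.2% and 17.5%, and Cybb in 25.7% and 3.34%. In the other direction, Il1b was seen in 36.1% and 89.97% of thinned cells, Dusp1 in 12.4% and 57%, Tagln2 in 3.31% and 38.8%, and Fos in 3.05% and 23.6%. Unthinned, Tagln2 was seen in 21.1% and 60.6%. Scgb1a1 was seen in 8.49% of MHTO7 and 13.7% of MHTO10 cells. The shares of Tagln2, Fos, Il1rap, Itga4, Gbp2, Saa3, Ifit3 and Cebpe in MHTO7 lay below that level, as did those of Ltf, Chil3, Cybb, Serpinb1a, Saa3, Ifit3 and Cebpe in MHTO10. At such shares free RNA was not told apart from expression, and the folds of these genes rest on a low level that it may contribute to. By granule share from 0.5% to 2% and from 2% to 10%, Cybb was at 21.2 and 249 CPM in MHTO10. Fos was at 49.2 and 19.1 CPM in MHTO7. Depth also differed between these ranges, with medians of 3215 and 8552.5 UMIs in MHTO10 and 5117.5 and 11506 in MHTO7. A fixed amount of free RNA takes a smaller share of a deeper cell, and its part in these levels was not tested.

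**Figure D3:**
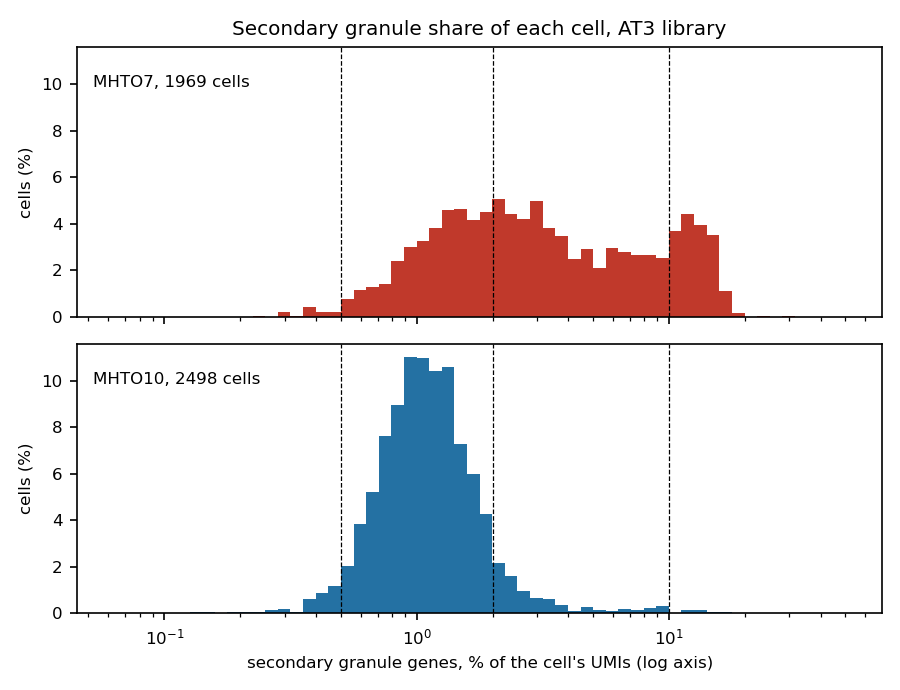
Percent of cells (y axis) by the share of their UMIs from secondary granule genes (x axis, log scale), for MHTO7 above and MHTO10 below, with dashed lines at 0.5%, 2% and 10%. MHTO10 forms 1 peak near its median of 1.08%, whereas MHTO7 spreads from below 1% to above 10%, where 334 of its cells lie.

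Depth was greater at a higher granule share inside each population. In MHTO7 the median was 5117.5 UMIs in the range from 0.5% to 2%, 11506 from 2% to 10% and 18383 at 10% or more. In MHTO10 it was 3215, 8552.5 and 19319 UMIs. Cell cycle genes summed to 2020 CPM in MHTO7 from 0.5% to 2%, 1631 CPM from 2% to 10% and 3972 CPM at 10% or more. Ube2c was at 140 CPM in that richest range, against 2.57 CPM from 2% to 10% and 0.54 CPM from 0.5% to 2%. Top2a was at 55.6 CPM and Mki67 at 31.7 CPM in the richest range. Cebpe ran from 273 CPM in the richest range to 53.4 and 11.6 CPM in the lower ones, and Cybb from 1201 to 403 and 45.9 CPM. Retnlg and Mmp8 did not follow that order. Retnlg was highest from 2% to 10%, at 30962 CPM, against 8047 CPM in the richest range and 20544 CPM in the lower one. Mmp8 was at 3284 CPM in that middle range, against 2061 and 1291 CPM. Il1b ran the other way, at 145, 258 and 1218 CPM from the richest range down, and Csf3r likewise at 126, 447 and 1640 CPM. Elane was at 1.88 CPM even in the richest range.

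MHTO7 and MHTO10 cells of like granule share were then compared with each other, for genes outside the granule list. Between 0.5% and 2%, where 690 MHTO7 and 2208 MHTO10 cells lay, 10 genes were at least 2-fold higher in MHTO7 (0.26% of 3843) and 84 were lower (2.19%). Between 2% and 10%, with 923 and 196 cells, 4 were higher (0.13% of 3067) and 55 were lower (1.79%). Of the 108 genes higher over all cells and outside the list, 4 were still 2-fold higher in the first range and 0 in the second, while 87 and 105 remained above 0. Of the 662 lower, 72 and 54 were still 2-fold lower, while 640 and 623 remained below 0. The ranges narrow the difference in granule share and in depth but do not remove it, as the medians of 5117.5 and 3215 UMIs in the first range show.

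Several of the lowest genes stayed far apart in both ranges. Tagln2 was at 43.8 CPM in MHTO7 and 717 CPM in MHTO10 in the first range, and at 30.3 and 359 CPM in the second. Fos was at 49.8 and 305 CPM, then at 20.1 and 151 CPM. Dusp1 was at 213 and 993 CPM, then at 96.9 and 489 CPM. Il1b (1234 and 3877 CPM in the first range), Adgre5 (192 and 729 CPM), Il1rap (74.5 and 301 CPM) and Dennd4a (63.3 and 284 CPM) also stayed over 2-fold apart in both ranges. Of the immediate-early genes, 6 of 9 and 5 of 8 remained at least 2-fold lower. Of the interferon-stimulated genes, 1 of 29 and 1 of 24 did, Gbp2 in both ranges, and Isg15 was at 351 and 368 CPM in the first. Cxcr4 differed by range: it was at 81.6 and 227 CPM in the first and at 81.1 and 64.2 CPM in the second.

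Few of the higher genes stayed 2-fold apart. In the first range Lyz2 was at 3112 CPM in MHTO7 and 1261 CPM in MHTO10. Cstdc5, a stefin-like gene of a cluster of near-identical copies that may share reads, was at 395 and 185 CPM. Retnlg, under 2-fold over all cells, was over 2-fold apart in this range, at 20829 and 9852 CPM. Cybb was at 46.6 and 21.5 CPM, a log2 ratio of 0.96. Serpinb1a, 6.63-fold higher over all cells, was at 18.6 and 17.7 CPM in the first range and at 349 and 185 CPM in the second. Erythroid markers also differed in the first range: their sum was 69.4 CPM in MHTO7 and 5.97 CPM in MHTO10, and the 1 marker compared had a log2 ratio of 2.33. In the second range the sums were 13.03 and 2.88 CPM. The part of red cell RNA in the results was not tested.

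**Figure D4:**
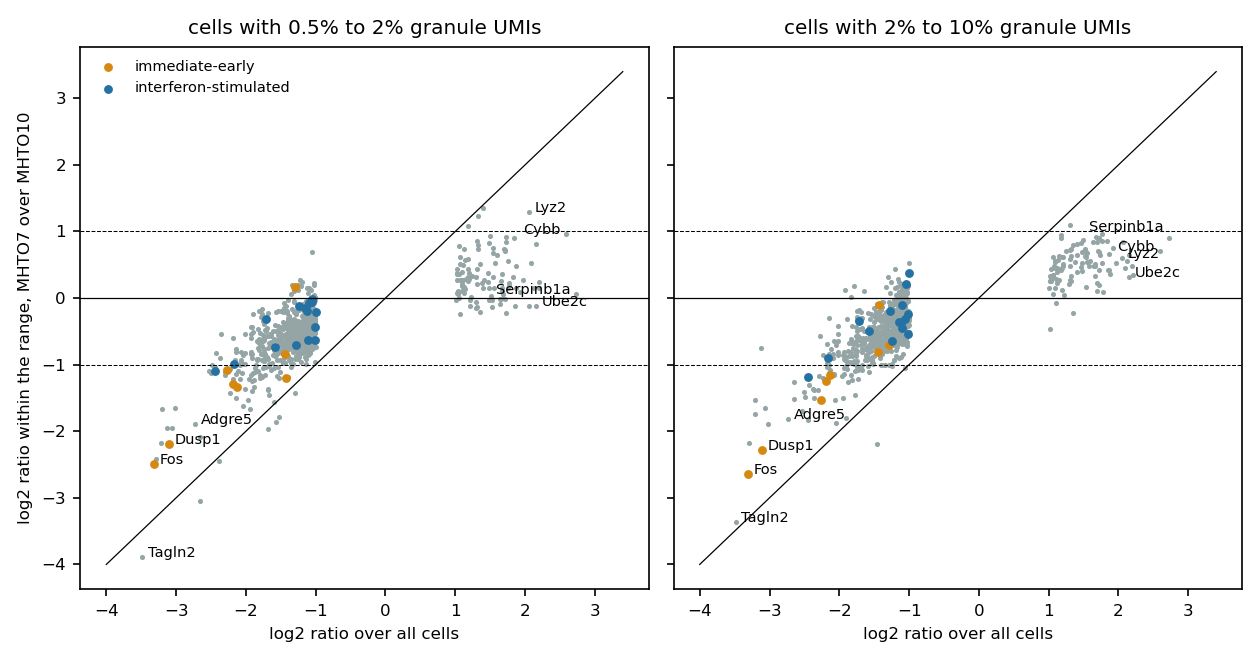
Log2 ratio of MHTO7 over MHTO10 within cells of like secondary granule share (y axis) against the ratio over all cells (x axis), for the genes called over all cells and outside the granule list (orange, immediate-early; blue, interferon-stimulated; grey, others), with 0.5% to 2% on the left and 2% to 10% on the right. Points on the diagonal kept their full difference, dashed lines mark 2-fold, and most points lie nearer to 0 than over all cells, while Tagln2, Fos and Dusp1 stay below the lower line.

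The same genes were read in the other tagged populations. MHTO8, from the same lane, lay between MHTO7 and MHTO10 for 84 of the 116 higher genes and 501 of the 662 lower genes. It lay at or beyond MHTO10 for 30 and 121, and at or beyond MHTO7 for 2 and 40. These genes were chosen for a wide gap, into which another population can fall by that choice alone. The share over all compared genes was not computed, so the counts do not show MHTO8 to be intermediate. Camp was at 1848 CPM and Ltf at 1040 CPM in MHTO8, near MHTO10. Il1b (15120 CPM), Fos (1141 CPM) and Dusp1 (2505 CPM) were higher in MHTO8 than in either. In the naive library, MHTO4 and MHTO3 were set side by side, a pair chosen with its granule levels known, and no label ties its tags to those of AT3. There 222 of 4405 genes were higher in MHTO4 (5.04%) and 973 were lower (22.1%). Of the 116 AT3 genes, 100 were at least 2-fold higher in naive MHTO4 too, which is 86.2% of the AT3 list and 45.0% of the naive one. Of the 662 lower genes 517 were lower there, 78.1% of the AT3 list and 53.1% of the naive one.

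In the naive pair, Camp was at 21046 CPM in naive MHTO4 and 886 CPM in naive MHTO3, and 10 of 13 secondary granule genes were at least 2-fold higher. One gene of the 116 was at least 2-fold apart in the opposite direction: Cstdc5 was at 57 CPM in naive MHTO4 and 209 CPM in naive MHTO3, against 460 and 200 CPM in AT3 MHTO7 and MHTO10. Wfdc17 was at 91.9 and 1326 CPM in the naive pair, far below its 5894 and 15571 CPM in AT3. Ly6g, at 999.8 and 398 CPM in AT3, was at 778 CPM in naive MHTO4 and 98.5 CPM in naive MHTO3. The difference between the libraries was not tested, since each was 1 lane.

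The AT3-gcsf populations tagged MHTO4 and MHTO3 differed in few genes: 9 of 3425 were higher in MHTO4 (0.263%) and 35 were lower (1.02%). None of its 12 secondary granule genes was at least 2-fold apart, with Camp at 960 and 499 CPM. Of the 35 lower genes, 30 were also among the 662 of the AT3 pair, 85.7% of the AT3-gcsf list and 4.53% of the AT3 one. Of these 30, 28 were compared in the naive pair, and all 28 were at least 2-fold lower there in MHTO4. They included Tagln2 (56.0 CPM in AT3-gcsf MHTO4 and 800.1 CPM in MHTO3), Fos (23.6 and 136 CPM), Adgre5 (106 and 427 CPM), Dusp1 (109 and 440 CPM), Il1b (459 and 1104 CPM) and Klf2 (524 and 1430 CPM). Ezr, the membrane to actin linker ezrin, was at 88.4 and 278 CPM in the AT3 pair and at 95.9 and 291 CPM in the AT3-gcsf pair. Tagln2 was at 52.2, 54.9 and 56.0 CPM in AT3 MHTO7, naive MHTO4 and AT3-gcsf MHTO4, while the other 6 populations ranged from 170 to 800.1 CPM.

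**Figure D5:**
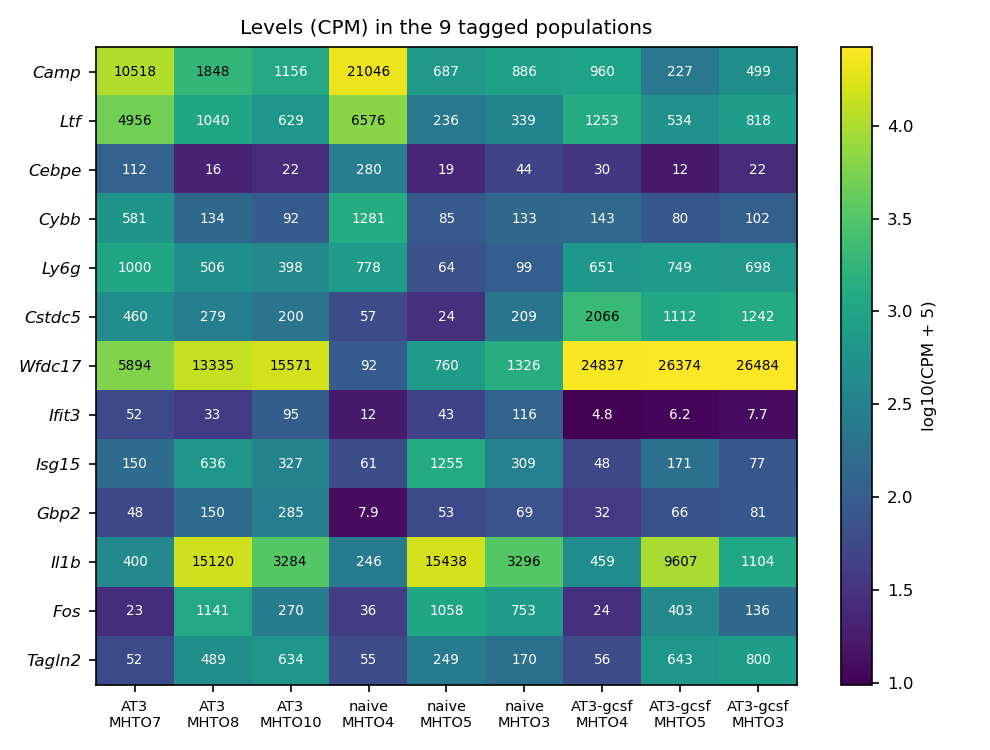
Level of 13 genes (rows, in CPM; colour is log10 of CPM + 5) in the 9 tagged populations of the 3 libraries (columns). AT3 MHTO7 and naive MHTO4 are the columns with the highest Camp (10518 and 21046 CPM), and both of these and AT3-gcsf MHTO4 have Tagln2 between 52.2 and 56.0 CPM.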

How the data were processed

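Single-cell RNA was measured on 10x Chromium (version 3 chemistry). The deposited matrices hold raw UMI counts per gene and barcode and raw counts per hashtag, and the submitters' processing notes name bcl2fastq 2.20.0.422, Cell Ranger 4.0.0 and the build mm10. No source used here says how the hashtags were counted. Barcodes were joined with the suffix cut, tags assigned and cells filtered as described above. Counts were summed per population, scaled to CPM of all genes, and compared as log2 of CPM + 5 at 20 CPM or more in the higher population (Python 3.11.15, scipy 1.17.1). Poisson intervals on CPM and Clopper-Pearson intervals on shares cover counting error only. TMM factors came from edgeR 4.0.16 in R 4.3.3. Doublets were called with Scrublet (scanpy 1.11.5, expected rate 0.08) and kept, 8 in MHTO7 and 10 in MHTO10. The members and gene lists were chosen with earlier results of these data known. Named genes were the 15 highest and 15 lowest, the extremes and 4 most abundant of each list, whole lists for 7 programs, and genes whose call changed with a setting. Named after their values were seen were Fcnb, Top2a, Mki67, Elane, Mpo, Prtn3, Cstdc5, Ezr, Igfbp6 and Steap4. Some genes that the rule names are not reported here. The comparison was checked on simulated counts. Promoters are from RefSeq on GRCm38.p6, and gene positions from GENCODE vM21.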

Additional observations from a re-analysis of the deposited data

How the results depend on the processing

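No paired analysis was possible because each population was 1 sample in 1 library. The counts of genes higher and lower in MHTO7 were 116 and 662. They were 65 and 323 with 20 CPM added, 72 higher at a minimum of 50 CPM, 313 and 195 with TMM factors, 400 and 336 with totals taken without the 20 most abundant genes, and 1367 and 35 in UMIs per cell (chosen after seeing the data). With only cells under 2% of UMIs from secondary granule genes they were 11 and 79, and 1 secondary granule gene was higher in place of 8. That setting selects cells on the granule genes themselves, and it gave log2 ratios of -0.34 for Camp, -0.35 for Ltf, -0.10 for Ngp and -0.14 for Chil3, and of -0.12 for 4930438A08Rik, -0.044 for Ceacam1, -0.17 for Stmn1, -0.048 for Ube2c, 0.15 for Ccl6 and 0.083 for Cxcr1. In UMIs per cell, named genes lower in CPM but above 0 included Birc3 0.21, Ccl6 0.32, Cebpb 0.24, Cxcr2 0.21, Cxcr4 0.056, Fau 0.34, Fgr 0.20, H2-K1 0.29, Herc6 0.019, Hspa5 0.056, Ifi47 0.16, Ifih1 0.070, Ifit1 0.30, Ifit3b 0.29, Il1rn 0.066, Isg15 0.28, Isg20 0.21, Klf6 0.12, Oas3 0.35, Oasl1 0.00096, Ptafr 0.21, Rps27 0.28, Rtp4 0.25, Selplg 0.24, Slc2a1 0.24, Tnfrsf1a 0.33 and Wfdc17 0.011. Of the 5 medians of gene programs at least 2-fold below 0 in CPM, 4 turned: chemoattractant receptors (0.34), chemokines and cytokines (0.12), cytokine receptors (0.30) and interferon-stimulated genes (0.29). All 4 lay below the median of all compared genes in UMIs per cell, 0.79. That follows from their CPM medians, since the scale adds 1.41 to every log2 ratio before the added constants. Smaller medians that turned include class I presentation (0.42), NF-kB feedback (0.29), transcription factors (0.36), adhesion (0.86), survival (0.83), lamina (1.0) and ribosomal proteins (1.05). The other settings (1 CPM added, no filter, mean of per-cell CPM, thinning, a stricter tag, another S100 minimum, doublets or shared barcodes left out) kept the counts of higher and lower genes within 1.5 times. Thinning and the mean of per-cell CPM brought the cell cycle median to -0.03 and -0.01. The genes called changed more than their counts. Thinning kept 84 of the 116 higher and 427 of the 662 lower calls, and the mean of per-cell CPM kept 85 and 441. All 116 and 662 genes kept their direction in both settings. A single lane without replicates limits all of these values to these cells, and genes of few counts have wide counting intervals.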
